A study of Mus musculus with 10 samples.

Results

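The genes of de novo lipogenesis, the route that builds fatty acids from acetyl-CoA, were followed in mouse liver. The 9 genes were taken by symbol from the 29657 genes of the deposited expression table: Srebf1 and Thrsp, which set or tune the rate of the pathway, Slc25a1, Acly, Acss2 and Me1, which supply its carbon and reducing power, and Acaca, Acacb and Fasn, which build the chain. C57BL/6 mice ate CDAHFD, a high-fat diet with defined L-amino acids and no added choline that is used to produce fatty and inflamed livers, for 8 weeks in both groups. The 5 control libraries carry the genotype label WT and come from mice that had AAV8-NC, a control adeno-associated virus, by vein. The other 5 come from mice that had AAV8-TBG-galectin-3 by vein and are labelled as a hepatocyte-specific knockdown of galectin-3. TBG is a promoter active in hepatocytes; the insert it drives is not described in the labels, and neither the age nor the sex of the mice is given. Whole liver RNA was sequenced, with 1 library per replicate. No separate batch is labelled.

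The targeted gene did not check the labels. Lgals3, which codes for galectin-3, had 105, 73.9, 61.6, 71.0 and 42.2 FPKM in the controls and 67.4, 90.8, 85.2, 85.6 and 41.9 FPKM in the other group (FPKM are fragments scaled to transcript length and to the size of the library). The groups overlapped, the log2 fold change was 0.08 with a standard error of 0.25, and the adjusted p in limma was 0.856, so the second group is called the labelled knockdown here. Lgals3 is also made by macrophages, and a whole-liver value does not separate them from hepatocytes. The tissue label was checked with Alb, the albumin gene of hepatocytes, which was between 21960 and 30351 FPKM in all 10 libraries.

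Hepatocytes turn surplus carbohydrate into fat through these enzymes. Citrate leaves the mitochondria, is split into acetyl-CoA in the cytosol, is carboxylated to malonyl-CoA and is then extended on fatty acid synthase to palmitate, with NADPH as the reductant. The pathway is switched mainly through transcription: insulin acts through SREBP-1c, the liver form of the Srebf1 product, and glucose acts through ChREBP, the product of Mlxipl. SREBP-1 has to be cut free from a membrane before it can enter the nucleus, a step that an mRNA level does not measure.

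Promoter letters are shown because the 9 genes include known targets of these factors and, in these livers, had differences of both signs. RefSeq windows on build GRCm38.p6 were found for 9 of 9 genes and held 12 start sites, 3 of them for Srebf1 and 2 for Me1. The 130 bases just before the start are given 5′ to 3′ on the strand of the gene. They lie at chr11:120824548-120824677 on the minus strand for Fasn, chr11:60210472-60210601 on the minus strand for Srebf1, chr2:155517913-155518042 on the plus strand for Acss2, chr16:17928220-17928349 on the minus strand for Slc25a1 and chr7:97417551-97417680 on the minus strand for Thrsp. Capitals mark a match, on either strand, to 1 of the motifs listed after the sequences; matches that touch or overlap run together.
Fasn: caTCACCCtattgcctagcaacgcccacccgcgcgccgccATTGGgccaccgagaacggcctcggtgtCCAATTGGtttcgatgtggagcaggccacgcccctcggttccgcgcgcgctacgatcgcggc
Srebf1, start furthest downstream: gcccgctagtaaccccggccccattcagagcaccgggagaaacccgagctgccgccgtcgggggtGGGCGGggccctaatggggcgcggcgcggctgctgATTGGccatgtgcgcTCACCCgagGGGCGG
Acss2: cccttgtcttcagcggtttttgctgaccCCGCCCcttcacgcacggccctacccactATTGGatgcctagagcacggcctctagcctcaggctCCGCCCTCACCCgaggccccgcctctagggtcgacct
Slc25a1: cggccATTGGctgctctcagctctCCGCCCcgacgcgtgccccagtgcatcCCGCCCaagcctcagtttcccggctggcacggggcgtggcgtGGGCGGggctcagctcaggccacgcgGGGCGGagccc
Thrsp: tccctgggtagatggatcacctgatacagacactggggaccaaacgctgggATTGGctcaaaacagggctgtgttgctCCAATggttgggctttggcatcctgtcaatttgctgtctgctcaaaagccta

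The motifs were searched in the 250 bases before each start, on both strands, in all 32851 windows of the reference table. The sterol response element TCACNCCAC, a binding site of SREBP, was in 0 of the 12 windows and in 1.05% of all windows. Its start, TCACCC, a choice made after the promoters were seen and one that every TCACNCCAC match with C at the open base holds, was in 4 of the 12 windows, 1 each of Srebf1, Acss2, Me1 and Fasn, and in 13.8% of all windows. The E-box CACGTG, which is bound by USF and other helix-loop-helix factors, was in the window of Slc25a1 alone among the 9 genes, outside the bases printed, and in 6.02% of all windows. CCAAT, the site of NF-Y, was in 8 of the 12 windows and in 33.8% of all windows, and the GC box GGGCGG, a site of SP1, was in 6 of the 12 and in 32.7% of all. Fasn, Srebf1 and Acss2 each held both TCACCC and CCAAT; the means of Fasn and Srebf1 were higher and that of Acss2 lower in the labelled knockdown, and none of these differences passed the test. A match describes letters in a window and says nothing of binding.

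None of the 9 genes passed the test between the groups. All 9 were among the 13471 tested genes, and 0 were called higher and 0 lower in limma at an adjusted p of 0.05, while 7.13% of all tested genes were called higher and 9.65% lower, or 16.8% in either direction. Of the 9 genes, 4 had a log2 fold change above 0 and 5 below, with a median of -0.04, the same as the median of -0.04 over all tested genes. For 0 of the 9 genes did the 5 libraries of one group stand clear of the other 5, against 13.1% of tested genes. At an unadjusted limma p under 0.05 there were 2 genes, Slc25a1 and Acly, beside 33.5% of tested genes. Summed over the 9 genes, control libraries held 166 to 229 FPKM and labelled knockdown libraries 134 to 264 FPKM. In bulk liver, fewer cells of a type and less RNA per cell cannot be told apart.

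**Figure D1:**
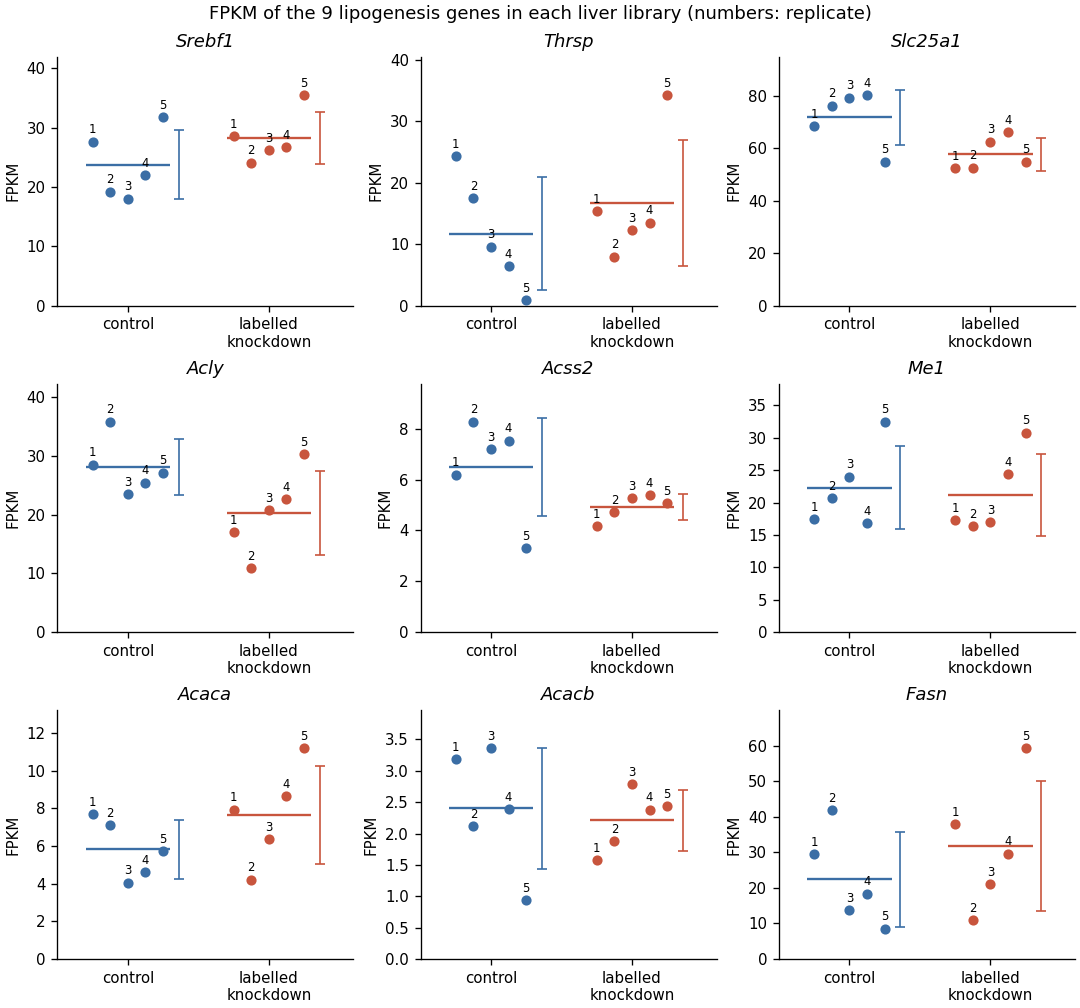
FPKM of each of the 9 genes (vertical axes, each from 0) in the 5 control libraries (blue) and 5 labelled knockdown libraries (red), numbered by replicate; lines are means and bars at the side mean ± SD. The groups overlap in every panel, and control 5 is the lowest of 10 libraries for Thrsp, Fasn, Acss2 and Acacb.

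Control 5 stood apart from the other controls across these genes. It was the lowest of the 10 libraries in Thrsp, Acss2, Acacb and Fasn, the highest of 10 in Me1 and the highest control in Srebf1. Labelled knockdown 5 was the highest of 10 in Srebf1, Thrsp, Acaca and Fasn, and labelled knockdown 2 was the lowest of its group in Srebf1, Thrsp, Acly, Me1, Acaca and Fasn. Results that rest on control 5 are therefore given with and without it. Control 5 was picked out by its values in these same genes, so a call gained by leaving it out is not separate support.

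Among the regulators, Srebf1 codes for the transcription factor SREBP-1, which binds the promoters of most lipogenic enzymes. It had 27.6, 19.2, 18.0, 22.0 and 31.7 FPKM in the controls and 28.5, 24.1, 26.2, 26.7 and 35.5 FPKM in the labelled knockdown. All 5 labelled knockdown libraries lay above the control mean of 23.7 ± 5.83 FPKM (SD, n = 5), but controls 1 and 5 reached into their range. The log2 fold change was 0.26 with a standard error of 0.16, and the 95% interval of the fold ran from 0.947 to 1.52 (limma adjusted p = 0.263). Without control 5 it was 0.37, with an adjusted p of 0.0851, and it was 0.17 without control 3 and 0.18 without labelled knockdown 5. The gene has several starts, which give SREBP-1a and SREBP-1c, and one FPKM per gene adds them together.

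Thrsp, also called Spot 14, codes for a small nuclear and cytosolic protein that responds to thyroid hormone and carbohydrate and promotes lipogenesis. Its level was 24.3, 17.5, 9.58, 6.44 and 0.849 FPKM in the controls and 15.4, 7.95, 12.3, 13.5 and 34.3 FPKM in the labelled knockdown. The controls alone spanned 28.6-fold from lowest to highest, and the labelled knockdown libraries 4.32-fold. On the log2 scale the SD among controls was 1.47, and only 0.2% of tested genes had one as large. The difference between the groups was accordingly imprecise: a log2 fold change of 0.77 with a standard error of 0.61 and a fold interval from 0.676 to 4.33 (limma adjusted p = 0.402). Without control 5 the log2 fold change was 0.19 (adjusted p = 0.773), without labelled knockdown 5 it was 0.49, and without control 1 it was 1.14.

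Of the supply genes, Slc25a1 and Acly had the smallest p-values of the 9 genes. Slc25a1 codes for the mitochondrial carrier that exports citrate, and it was the most abundant of the 9 genes. Controls had 68.3, 76.2, 79.2, 80.3 and 54.9 FPKM, and labelled knockdown libraries 52.5, 52.6, 62.5, 66.0 and 54.8 FPKM. Every control but the fifth lay above every labelled knockdown library. The mean was 71.8 ± 10.5 against 57.7 ± 6.20 FPKM (SD, n = 5 in each group), a log2 fold change of -0.30 with a standard error of 0.12 and a fold interval from 0.68 to 0.965 that is not adjusted for the number of genes. The limma adjusted p was 0.0899. Without control 5 the log2 fold change was -0.40 and passed the test, with an adjusted p of 0.0214. With all libraries scaled to hepatocyte markers it was -0.18, with an adjusted p of 0.435. Slc25a1 was called in 1 of the 10 fits that left out 1 library and in 3 of the 13 other settings.

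Acly codes for ATP citrate lyase, which splits the exported citrate into acetyl-CoA and oxaloacetate. It had 28.5, 35.8, 23.5, 25.4 and 27.1 FPKM in the controls and 17.0, 10.9, 20.7, 22.6 and 30.3 FPKM in the labelled knockdown. The lower 4 labelled knockdown libraries lay under every control, and the fifth lay above all controls but 1. This gave the most negative log2 fold change of the 9, -0.51 with a standard error of 0.22 and a fold interval from 0.507 to 0.979, and it did not pass after adjustment (limma adjusted p = 0.127). Over the 10 fits that each left out 1 library the adjusted p stayed between 0.0537 and 0.254, and without labelled knockdown 2 the log2 fold change was -0.31.

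Acss2 codes for the cytosolic synthetase that makes acetyl-CoA from acetate, a source that does not pass through citrate. Its level was 6.19, 8.28, 7.20, 7.53 and 3.30 FPKM in the controls and 4.17, 4.71, 5.28, 5.38 and 5.08 FPKM in the labelled knockdown. As for Slc25a1, the other 4 controls stood above all labelled knockdown libraries; control 5 stood below them all in Acss2. The log2 fold change was -0.30 with a standard error of 0.18 (limma adjusted p = 0.271). Without control 5 it was -0.48 and passed, with an adjusted p of 0.0146, and scaled to hepatocyte markers it was -0.19, with an adjusted p of 0.547. Acss2 was called in 1 of the 10 fits that left out 1 library and in 0 of the 13 other settings.

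Me1 codes for cytosolic malic enzyme, which yields NADPH while turning malate into pyruvate. Controls had 17.4, 20.7, 24.0, 16.8 and 32.5 FPKM and labelled knockdown libraries 17.3, 16.4, 17.0, 24.4 and 30.8 FPKM. The ranges were almost the same, and the log2 fold change was -0.07 with a fold interval from 0.697 to 1.3 (limma adjusted p = 0.837). Leaving out control 5 turned its sign (0.07), as did leaving out labelled knockdown 2 (0.01).

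Of the enzymes that build the chain, Acaca codes for acetyl-CoA carboxylase 1, the cytosolic form whose malonyl-CoA feeds fatty acid synthesis. It had 7.69, 7.12, 4.05, 4.61 and 5.73 FPKM in the controls and 7.93, 4.21, 6.38, 8.64 and 11.2 FPKM in the labelled knockdown. Labelled knockdown libraries 1, 4 and 5 exceeded every control, and labelled knockdown 2 sat among the lowest controls. The log2 fold change was 0.32 with a standard error of 0.22 and a fold interval from 0.894 to 1.74 (limma adjusted p = 0.335). It was 0.49 without labelled knockdown 2 and 0.18 without labelled knockdown 5.

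Acacb codes for acetyl-CoA carboxylase 2, which sits at the mitochondrial surface, where its malonyl-CoA restrains fatty acid oxidation. It was the least abundant of the 9, with 3.19, 2.12, 3.36, 2.39 and 0.938 FPKM in the controls and 1.57, 1.88, 2.79, 2.38 and 2.44 FPKM in the labelled knockdown. The labelled knockdown range lay wholly inside the control range, whose low end was control 5. The log2 fold change was -0.04 with a fold interval from 0.716 to 1.32 (limma adjusted p = 0.902). Its sign turned without control 1 (0.05), control 3 (0.06) or labelled knockdown 1 (0.03). Without control 5 the log2 fold change was -0.23 (limma adjusted p = 0.263). The ratio of Acaca to Acacb FPKM within a library was 2.41, 3.36, 1.20, 1.93 and 6.11 in the controls and 5.07, 2.24, 2.29, 3.64 and 4.60 in the labelled knockdown. Those ranges overlapped, and the mean log2 ratio was 0.39 higher in the labelled knockdown, with an exact two-sided permutation p of 0.437, where the smallest p the design allows is 0.00794. That difference was 0.70 without control 5, 0.11 without control 3 and 0.24 without labelled knockdown 1.

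Fasn codes for fatty acid synthase, the enzyme that assembles palmitate. It had 29.4, 41.8, 13.8, 18.4 and 8.52 FPKM in the controls and 38.0, 11.0, 21.1, 29.6 and 59.3 FPKM in the labelled knockdown. Fasn varied widely within each group, 4.91-fold from lowest to highest among controls and 5.41-fold among labelled knockdown libraries. Its SD on the log2 scale was 0.85 and 0.88, and 0.779% and 0.475% of tested genes had SDs as large in the same groups. The log2 fold change was 0.48 with a standard error of 0.46 and a fold interval from 0.697 to 2.81 (limma adjusted p = 0.488), and without control 5 it was 0.21 (adjusted p = 0.768). It was also 0.21 without labelled knockdown 5, while it was 0.80 without labelled knockdown 2 and 0.75 without control 2.

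**Figure D2:**
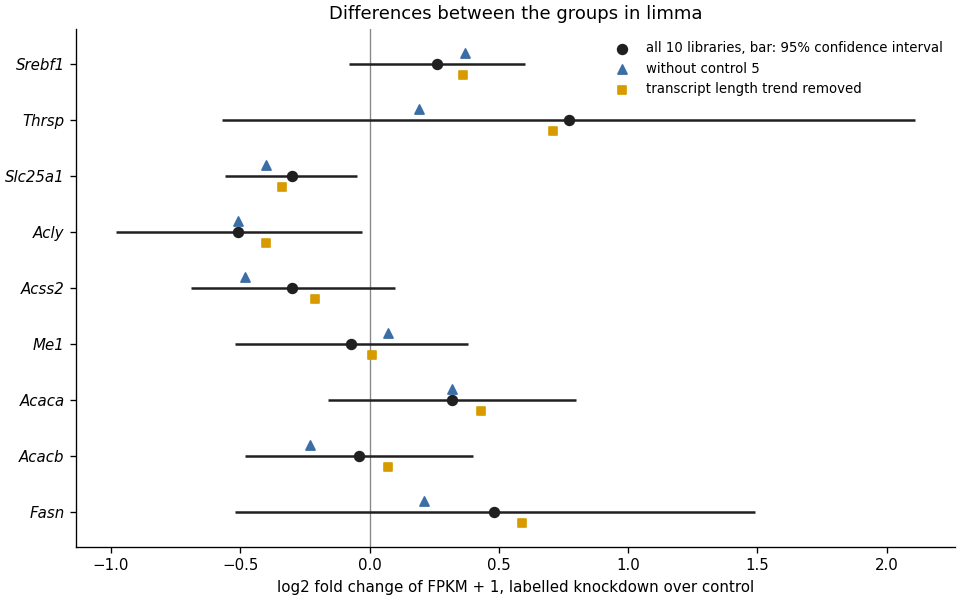
Log2 fold changes of FPKM + 1, labelled knockdown over control, with 95% confidence intervals from limma (black), and the values without control 5 (blue triangles) and with the transcript length trend removed (yellow squares). The intervals of Slc25a1 and Acly end below 0 before adjustment for the number of genes, and those of Thrsp and Fasn are the widest.

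In the authors' deposited table, q-values of the 9 genes ran from 0.189 for Slc25a1 to 0.986 for Me1, and the authors' deposited table marks 0 of them as significant. The groups also differed in how FPKM moved with transcript length. For each library, the log2 departures from each gene's mean over the 10 libraries were fitted on length. Such slopes compare libraries with each other and do not give the trend within one library or group. Per doubling of length the slope was 0.03 ± 0.01 (SD, n = 5) in controls and -0.03 ± 0.02 in the labelled knockdown, with no overlap and an exact permutation p of 0.00794. This bears on the long transcripts, since only 1.7% of tested genes were as long as Fasn, 2.15% as long as Acaca and 2.95% as long as Acacb. With that trend removed the log2 fold changes were 0.59 for Fasn, 0.43 for Acaca, 0.07 for Acacb and 0.36 for Srebf1, and 0 of the 9 genes passed.

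Because FPKM is per length, the levels of the 9 genes can be put in order. Over the 10 libraries the mean FPKM was 64.7 for Slc25a1, 27.1 for Fasn, 25.9 for Srebf1, 24.2 for Acly, 21.7 for Me1, 14.2 for Thrsp, 6.76 for Acaca, 5.71 for Acss2 and 2.30 for Acacb. Slc25a1 exceeded Fasn in 9 of 10 libraries, Me1 exceeded Thrsp in 8, Thrsp exceeded Acaca in 9 and Acss2 exceeded Acacb in 10. The neighbours in between were not separated: Fasn exceeded Srebf1 in 5 of 10 libraries, Acly exceeded Me1 in 4 and Acaca exceeded Acss2 in 6. Srebf1 exceeded Acly in 1 of 5 controls and in 5 of 5 labelled knockdown libraries. The ratio of Acly to Acss2 FPKM, the citrate and acetate routes to acetyl-CoA, was 4.60, 4.33, 3.27, 3.37 and 8.19 in the controls and 4.07, 2.30, 3.92, 4.20 and 5.97 in the labelled knockdown. Control 5 was again the extreme, and the difference in mean log2 ratio of -0.19 had an exact two-sided permutation p of 0.587 and turned to 0.03 without that library.

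Some of the 9 genes varied together from library to library. Over the 10 libraries, 36 pairs of the 9 genes were correlated on the log2(FPKM + 1) scale, with p-values from 100000 permutations adjusted over the 36 pairs, and 3 pairs passed by Pearson's r and 2 by Spearman's rho. Fasn varied with Thrsp and with Acaca. Fasn and Thrsp had r = 0.86 (permutation p = 0.00042, adjusted 0.0076) and rho = 0.89 (p = 0.0011, adjusted 0.021). Without control 5 and labelled knockdown 5, the libraries farthest from the median of Thrsp, r was 0.76, and it was 0.84 for the departures from the group means. Fasn and Acaca had r = 0.84 (permutation p = 0.0036, adjusted 0.043) and rho = 0.83 (p = 0.0048, adjusted 0.058), with r = 0.75 without labelled knockdown 5 and control 3. For the departures from the group means r was 0.82. Acly had r = 0.42 with Acaca and with Fasn, and 0.87 and 0.76 for the departures. With Slc25a1 and Acss2 the r of Acly went the other way, from 0.5 to 0.2 and from 0.41 to 0.21. The departures were not tested.

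The citrate carrier gene Slc25a1 varied with Acss2, at r = 0.89 (permutation p = 0.00042, adjusted 0.0076) and rho = 0.89 (p = 0.0011, adjusted 0.021). Without controls 3 and 4 r was 0.86, and for the departures from the group means it was 0.89. Both genes ran opposite to Srebf1, with r = -0.77 for Slc25a1 (permutation p = 0.011, adjusted 0.078) and r = -0.76 for Acss2 (permutation p = 0.01, adjusted 0.078), and these did not pass after adjustment. Srebf1 and Fasn, a regulator and one of its best known targets, had r = 0.23 (permutation p = 0.52, adjusted 0.72), and Srebf1 and Acaca r = 0.65 (permutation p = 0.04, adjusted 0.2). Values of 1 library share its scaling, which can move genes together.

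**Figure D3:**
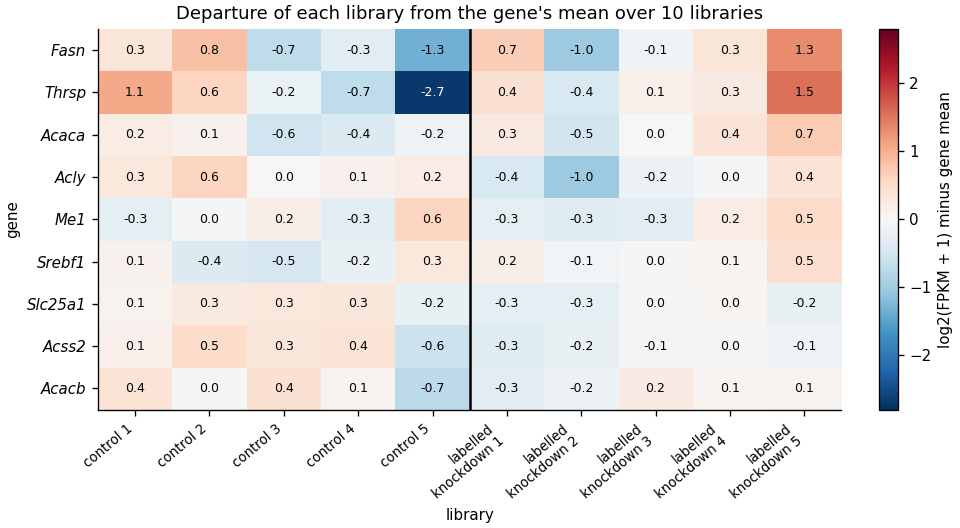
Departure of each library (columns; the black line separates the groups) from each gene's mean over 10 libraries (rows), in log2(FPKM + 1), with the value printed in each cell. Fasn, Thrsp and Acaca are high (red) in labelled knockdown 5, and control 5 is low in Thrsp, Fasn, Acss2 and Acacb but high in Me1 and Srebf1.

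**Figure D4:**
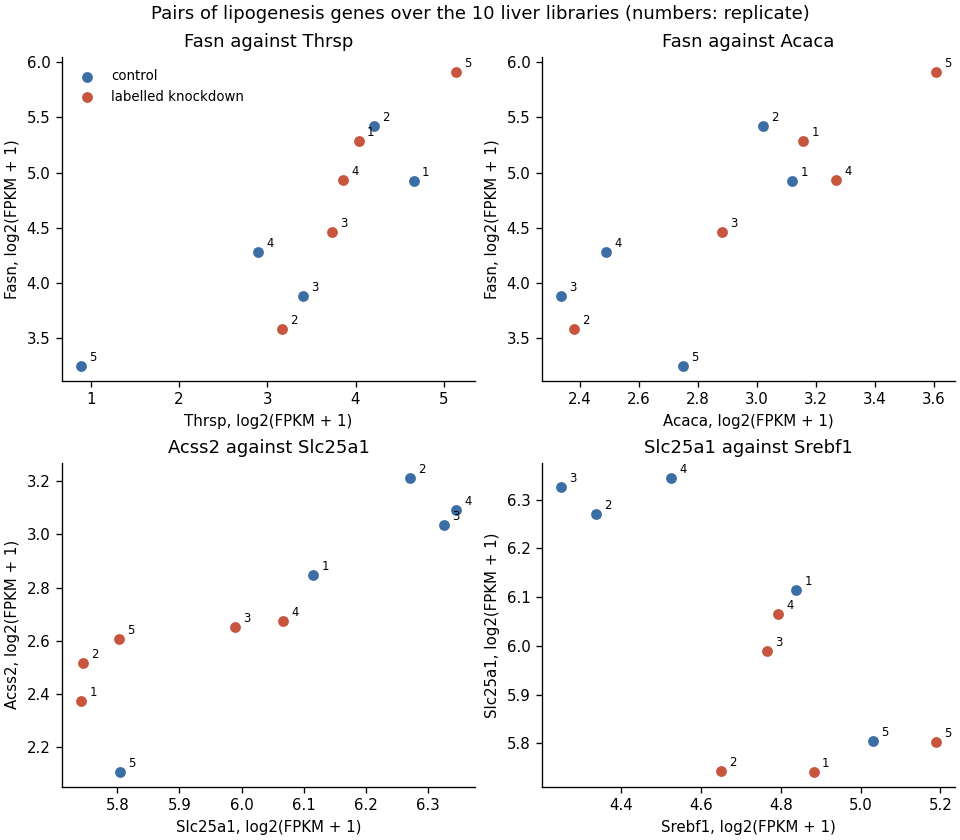
Log2(FPKM + 1) of 4 pairs of genes in the 10 libraries (blue control, red labelled knockdown, numbered by replicate). Fasn rises with Thrsp (r = 0.86) and Acaca (r = 0.84), Acss2 rises with Slc25a1 (r = 0.89), and Slc25a1 falls with Srebf1 (r = -0.77, not past adjustment).

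The genes most like Fasn over the 10 libraries were found among 5503 tested genes that averaged 5 FPKM or more, by the mean absolute difference of the departures from each gene's own mean. The nearest was Aacs, acetoacetyl-CoA synthetase, at 0.316 on the log2 scale. It was followed by Mid1ip1, a relative of Thrsp that binds acetyl-CoA carboxylase (0.354), Elovl6, which lengthens palmitate (0.356), Ppp1r3b, a glycogen-targeting subunit of protein phosphatase 1 (0.357), and the transcription factor Bhlha15 (0.372), against a median of 0.698 over all candidates. Aacs had 14.3, 16.1, 6.89, 7.78 and 6.27 FPKM in the controls and 10.7, 5.44, 7.25, 12.0 and 16.5 FPKM in the labelled knockdown, high where Fasn was high in controls 1 and 2 and labelled knockdown 5. The genes most like Srebf1 were of another kind: the ribosome assembly factor Mrto4 (0.081), Rps12-ps3, a pseudogene whose reads can come from its parent gene (0.101), the mitochondrial ribosomal protein genes Mrpl50 (0.108) and Mrps17 (0.109), and the ribosomal protein gene Rpl13a (0.109), against a median of 0.277. None of the genes named here as like Fasn passed the test between groups (limma adjusted p from 0.111 for Ppp1r3b to 0.965 for Aacs), while Rpl13a did, from 159 ± 16.7 to 204 ± 22.2 FPKM (SD, n = 5; log2 fold change 0.36, adjusted p = 0.0336), a call kept in 4 of the 10 fits that each left out 1 library. The match used all 10 libraries, the difference between the groups included, so these outcomes are not separate from it.

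Genes around the 9 were read in lists, each beside the 16.8% of all tested genes called (7.13% higher and 9.65% lower). Differences are given as before, on the log2(FPKM + 1) scale. Of 26 tested genes that process or control SREBP or act beside it, 1 was higher and 3 were lower. That was 15.4%, a share near that of all tested genes. Mlxipl, which codes for ChREBP, the glucose-sensing partner of SREBP-1c at lipogenic promoters, rose from 47.4 ± 9.14 to 90.7 ± 17.9 FPKM (SD, n = 5; log2 difference 0.92, limma adjusted p = 0.00944). Erlin1, part of the endoplasmic reticulum machinery that degrades sterol-regulated proteins, fell from 14.1 to 9.23 FPKM (log2 difference -0.56, adjusted p = 0.015), and Rxra, the partner of the liver X receptors, fell from 43.9 to 29.8 FPKM (-0.55, adjusted p = 0.02). The sterol sensors themselves gave values of -0.40 for Insig1 (adjusted p = 0.128), -0.21 for Insig2 (0.356) and -0.22 for Scap (0.0699), which did not pass. With the length trend removed, or with scaling to hepatocyte markers, the list held 1 higher and 1 lower gene. Lower genes numbered 8 with array weights in limma and 6 after rescaling without mitochondrial genes. The list held 5 lower genes without control 4, control 5 or labelled knockdown 4, and 2 higher genes without control 5.

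Glycolysis, which brings glucose carbon to pyruvate, had 3 of 14 tested genes higher and 0 lower. That was 21.4% against 7.13% of all tested genes called higher, or 16.8% called in either direction. The median over the list was 0.35. Gckr, the nuclear inhibitor of glucokinase, rose from 46.9 ± 8.71 to 79.2 ± 10.9 FPKM (SD, n = 5; log2 difference 0.75, limma adjusted p = 0.00944). Pklr, liver pyruvate kinase, rose from 62.9 ± 33.0 to 133 ± 49.0 FPKM (1.14, adjusted p = 0.0369), and Gpi1, glucose phosphate isomerase, from 35.6 to 49.1 FPKM (0.45, adjusted p = 0.0456). The Pklr call was kept in 4 and the Gpi1 call in 1 of the 10 fits that left out 1 library. Only 1 gene of the list was called without control 3, control 4, control 5 or labelled knockdown 1, 3 or 5, and 2 without control 2 or labelled knockdown 2.

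Of 31 tested genes that handle citrate, acetyl-CoA and NADPH, 3 were higher and 4 lower, or 22.6% against 16.8% of all tested genes. Mpc2, a subunit of the mitochondrial pyruvate carrier, rose from 14.6 to 18.9 FPKM (log2 difference 0.35, limma adjusted p = 0.0108), and Pgls of the pentose phosphate route rose from 13.4 to 16.8 FPKM (0.31, adjusted p = 0.0227). Dld, the shared E3 subunit of the pyruvate and oxoglutarate dehydrogenases, fell from 34.4 to 25.2 FPKM (-0.44, adjusted p = 0.0161), and Aco1, cytosolic aconitase, from 38.6 to 32.0 FPKM (-0.27, adjusted p = 0.0225). G6pdx and Pgd, which make NADPH, gave values of -0.32 (adjusted p = 0.216) and -0.27 (0.105). Scaling the libraries to hepatocyte markers left 1 higher and 0 lower, and removing the length trend left 3 higher and 1 lower. Higher calls were 1 without control 2 or 3, and lower calls were 1 without control 2 or 3 and 2 without control 1 or 4 or labelled knockdown 3 or 5.

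Genes that act on acetyl-CoA carboxylase or its product were 2 higher and 2 lower of 19 tested, or 21.1% against 16.8% of all tested genes. Stk11, the kinase LKB1 upstream of AMPK, rose from 22.7 to 30.0 FPKM (log2 difference 0.38, limma adjusted p = 0.0128), and Mlycd, which breaks down malonyl-CoA, from 27.5 to 34.1 FPKM (0.30, adjusted p = 0.0358). Prkaa2, a catalytic subunit of AMPK, the kinase that switches the carboxylases off, fell from 7.41 to 5.57 FPKM (-0.36, adjusted p = 0.0248), and Cab39, a partner of LKB1, from 11.5 to 9.19 FPKM (-0.30, adjusted p = 0.0348). These calls were kept in 10, 2, 5 and 1 of the 10 fits that left out 1 library, in that order. With the length trend removed or with scaling to hepatocyte markers, 0 genes of this list were lower. Lower calls were also 0 without control 2, 3 or 4 or labelled knockdown 3 or 5, 1 without control 1 or 5 or labelled knockdown 1 or 2, and 4 without labelled knockdown 4, while higher calls were 1 without any single library but labelled knockdown 1 (2) or 4 (3).

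Downstream of palmitate come the desaturases and elongases. Of 15 tested genes of this list 5 were lower and 0 higher, or 33.3% called against 9.65% of all tested genes called lower; 4 had values above 0, and the median over the list was -0.46. Fads2 and Fads1, the delta-6 and delta-5 desaturases of polyunsaturated fatty acids, fell from 272 ± 54.1 to 127 ± 26.1 FPKM (SD, n = 5; log2 difference -1.09, limma adjusted p = 0.00684) and from 118 ± 10.2 to 74.5 ± 11.5 FPKM (-0.66, adjusted p = 0.00852). Elovl2 and Elovl5, which lengthen polyunsaturated chains, fell from 84.2 to 46.8 FPKM (-0.83, adjusted p = 0.00778) and from 92.4 to 57.5 FPKM (-0.66, adjusted p = 0.0107). For each of these 4 genes the groups did not overlap, and each kept its call in all 10 fits that left out 1 library. The enzymes that act directly on the product of Fasn were not called: Scd1, stearoyl-CoA desaturase, had means of 70.2 and 40.6 FPKM (-0.67, adjusted p = 0.462), and Elovl6 means of 6.52 and 7.95 FPKM (0.15, adjusted p = 0.747).

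Acylglycerol synthesis, which stores the new fatty acids, had 1 of 11 tested genes higher and 1 lower, or 18.2%, a share near the 16.8% of all tested genes. Agpat2, which acylates lysophosphatidic acid, rose from 83.9 to 132 FPKM (log2 difference 0.65, limma adjusted p = 0.0154), and Gpat4, which acylates glycerol 3-phosphate, fell from 14.2 to 10.7 FPKM (-0.39, adjusted p = 0.0183). The fall of Gpat4 did not pass with the length trend removed (adjusted p = 0.112) or with scaling to hepatocyte markers (adjusted p = 0.112). Mitochondrial fatty acid synthesis, a separate pathway that makes lipoic acid precursors, had 2 of 9 higher, or 22.2% against 7.13% of all tested genes called higher. They were Hsd17b8 (0.37, limma adjusted p = 0.0486) and the acyl carrier protein Ndufab1 (0.26, adjusted p = 0.0406). This count was 1 without control 5 or labelled knockdown 2 or 4, and 0 without any other single library.

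The sterol targets of SREBP-2, the sister factor that drives cholesterol synthesis, were 7 lower and 0 higher of 18 tested, or 38.9% against 9.65% of all tested genes called lower, and all 18 had a log2 fold change below 0, with a median of -0.60. Dhcr7, an enzyme late in cholesterol synthesis, fell from 11.5 to 6.66 FPKM (log2 difference -0.70, limma adjusted p = 0.039) and Lss, lanosterol synthase, from 5.69 to 3.75 FPKM (-0.50, adjusted p = 0.0405). The count depended on single libraries: it was 17 without control 5 and 9 without labelled knockdown 4, 3 without control 1, and 2 without any other single library. It was 2 with the length trend removed and 1 with scaling to hepatocyte markers.

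In the insulin signalling list, which leads from the receptor to SREBP-1, 6 of 22 tested genes were lower and 0 higher, or 27.3% against 9.65% of all tested genes called lower, and the median over the list was -0.15. Foxo3 and Foxo1, transcription factors that insulin shuts out of the nucleus, fell from 6.01 to 3.77 FPKM (log2 difference -0.55, limma adjusted p = 0.00944) and from 2.77 to 2.22 FPKM (-0.23, adjusted p = 0.0329). Pdpk1, the kinase that activates AKT, fell from 3.77 to 2.81 FPKM (-0.33, adjusted p = 0.0196), and Rptor, the scaffold of mTORC1, from 2.77 to 2.17 FPKM (-0.25, adjusted p = 0.0398). With the length trend removed 1 gene was lower and 1 higher, and with scaling to hepatocyte markers 0 were called. Lower calls ranged from 1, without control 2, to 8, without labelled knockdown 4, and were 3 without control 1 or labelled knockdown 2, 4 without control 4, and 2 without control 3 or labelled knockdown 1, 3 or 5.

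**Figure D5:**
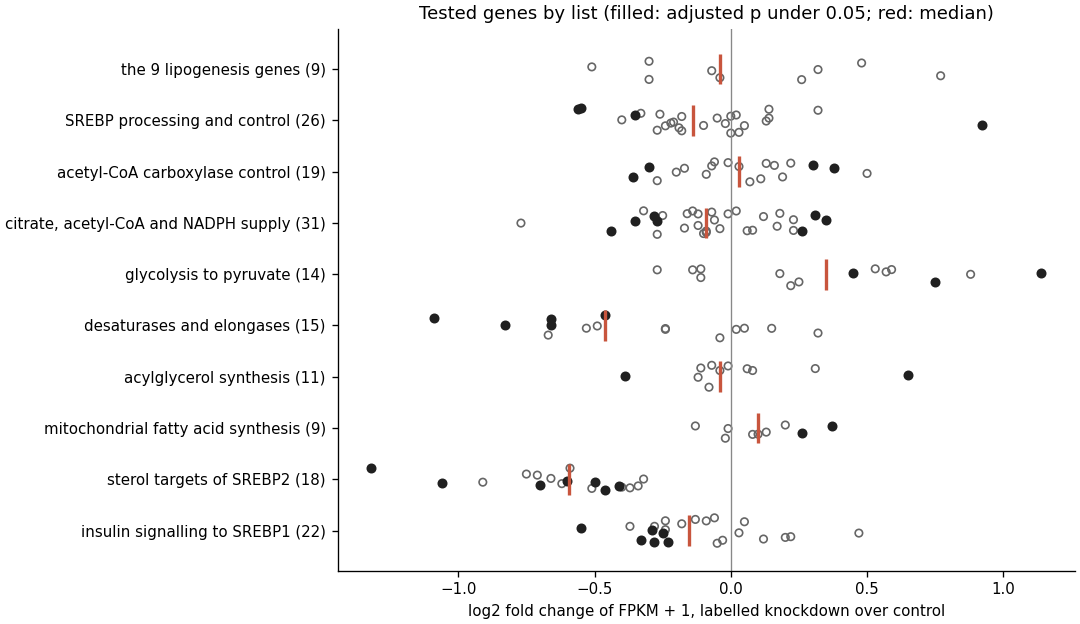
Log2 fold changes of FPKM + 1, labelled knockdown over control, for the tested genes of each list (number in brackets), with filled points for a limma adjusted p under 0.05 and a red line at the list's median. The 9 lipogenesis genes lie on both sides of 0 with none filled, the glycolysis median is 0.35, and the medians of desaturases and sterol targets are -0.46 and -0.60.

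Marker lists of other cell types were summed in each library. The summed FPKM of Kupffer cell markers was 232 to 337 in controls and 181 to 267 in the labelled knockdown (exact two-sided permutation p = 0.0159; 2 of 10 tested markers lower, 0 higher). The sum of 12 stellate cell markers was 124 to 148 and 67.4 to 139 (exact p = 0.0635; 3 lower). The adipocyte list, fat tissue being the other large site of lipogenesis, summed to 50.0 to 71.6 and 29.6 to 53.2 FPKM (exact p = 0.0159). Of its 5 tested markers 2 were lower, Cidec and Pparg. The highest levels of the list were those of Pnpla2 and Cidec, with means of 25.5 and 23.1 FPKM in controls and 21.9 and 12.0 in the labelled knockdown. The defining markers of adipocytes were near 0, with at most 0.0404 FPKM for Adipoq and 0.168 for Cfd in any library. Hepatocyte markers summed to 39694 to 44474 and 35650 to 44127 FPKM (exact p = 0.508), with 4 of 13 lower and 1 higher. Alb alone gave 28955 of the 44474 FPKM in control 1, so the sum mostly follows Alb. The lower ones were Apob, Cps1, Ass1 and Hnf4a and the higher one Ttr, and for each the groups did not overlap. Scaling to hepatocyte markers used the median departure of these same 13 markers. The exact p was 0.143 for the sum of monocyte and lipid-associated macrophage markers and 0.23 for endothelial markers. It was 0.325 for cholangiocyte, 0.437 for T and NK cell and 0.849 for B and plasma cell markers. Single genes carried much of the cholangiocyte and macrophage sums. In control 1, Spp1 gave 340 of the 381 FPKM of the cholangiocyte sum. Spp1 was also in the macrophage sum, where Lyz2 gave 540 and Spp1 340 of 1151 FPKM, so the p-values of these sums are not separate. The macrophage sum also held Lgals3, the targeted gene. The ranges of the groups overlapped for every list, Kupffer cell and adipocyte markers included. These exact p-values were not adjusted for the 9 cell type lists. The part of the shifts in Kupffer cell and adipocyte marker sums in the results for the 9 genes and the lists was not tested.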

How the data were processed

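Polyadenylated liver RNA went into 10 dUTP libraries, 5 per group, which mark the strand, per the labels' protocols. The submitters' processing notes list HISAT2 2.0.4, StringTie 1.3.4d and cutadapt 1.9; the build named there is human while the gene identifiers are those of mouse, so the build of the table is not known. The deposited table gives FPKM per gene and library, per the file headers, and the authors' deposited fold ratio, its log2 value, and p-value and q-value; their test is not stated in the labels. Sequencing depth is unknown: low FPKM values were whole multiples of a common step for only 10.8 to 13.0% of values (tolerance 0.02), so reads were not recovered, and precision is given by the spread between libraries. Nothing says that every library is a separate mouse, and p-values then measure only the spread between these samples.

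Genes with at least 0.5 FPKM in at least 5 libraries (13471) were compared as log2(FPKM + 1) in R 4.3.3 by limma 3.58.1 with the trend option, two-sided p and Benjamini-Hochberg adjustment over all tested genes, called at 0.05; the fit was tested on simulated data. On this scale the folds of weakly expressed genes are understated. Exact permutation of the labels over 252 assignments was used for single values. Transcript lengths were those of the longest GENCODE M21 transcript, for 97.9% of tested genes. The 9 genes and all lists were chosen with earlier results of these data known. Named genes were the 9, Lgals3, up to 4 called genes of smallest p per list, and the 5 genes most like Fasn and Srebf1, with unnamed genes and those with provisional Gm or Rik symbols left out; Insig1, Insig2, Scap, G6pdx, Pgd, Scd1, Alb, Adipoq and Cfd were added after their values were seen, and some genes that the rule takes, although counted in their lists, are not reported here. The lists held 170 symbols in 9 pathway lists beside 9 cell type lists. The settings tried were 13, plus 10 that each left out 1 library.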

Additional observations from a re-analysis of the deposited data

Results flagged for a closer look

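Among 120 groups of 5 values, 5 held a library whose gap to the nearest other was above 0.71 of the group's whole range, where chance gives about 1 in 20 such groups. None was among the 9 lipogenesis genes. In the controls, Fads1 was 136 FPKM in control 3 against 110 to 115 in the others, and Fads2 was 366 FPKM in the same library against 230 to 263. Foxo1 was 2.49 FPKM in control 4 against 2.79 to 2.89. In the labelled knockdown, Cab39 was 11.2 FPKM in replicate 4 against 8.38 to 8.95 and Gpi1 was 65.6 FPKM in replicate 5 against 42.5 to 47.6.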

How the results depend on the processing

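Under 13 other settings and 10 fits that each left out 1 library, the count of lipogenesis genes called higher was 0 except for 1 (Srebf1, limma adjusted p = 0.0469) with the replicate block and the length trend removed together. The count called lower was 1 (Slc25a1) under quantile normalization, 1 with array weights and 1 with the replicate block and length trend, and ran from 0 to 2 over the left-out libraries, with 2 (Slc25a1 and Acss2) without control 5; the cause was not tested. Replicate numbers did not pair the libraries: same-numbered libraries correlated at -0.015 to 0.114, and only replicate 1 correlated best with its own number. With the replicate block alone 0 of the 9 genes were called, and 769 genes were higher and 986 lower. Me1 changed sign to 0.05 with scaling to hepatocyte markers, 0.01 with the length trend removed, 0.01 with the block and length trend, 0.07 without control 5 and 0.01 without labelled knockdown 2, within -0.21 to 0.07 over left-out libraries. Acacb changed sign to 0.04, 0.07 and 0.07 under the same 3 settings, and to 0.05, 0.06 and 0.03 without control 1, control 3 and labelled knockdown 1, within -0.23 to 0.06. Over left-out libraries, the labelled knockdown minus control difference in mean log2 ratio ran from -0.34 to 0.03 for Acly to Acss2. The same difference ran from 0.11 to 0.70 for Acaca to Acacb. Over all genes, 511 were higher and 682 lower without the filter on low values, and lower calls numbered 201 with scaling to hepatocyte markers, 2047 with array weights, 720 with the length trend removed and 680 with the block and length trend. Leaving out 1 library gave 442 to 966 higher (442 without control 3) and 549 to 1736 lower (549 without control 2, 1736 without labelled knockdown 4). The split of 960 higher and 1300 lower became 1240 and 1060 with median-of-ratios scaling, 1165 and 1181 with quantile normalization, 768 and 201 with scaling to hepatocyte markers, which moved the median of all genes by 0.10, and 744 and 1595 after rescaling without mitochondrial genes. The pseudocount of 1 used in the 2 ratios as an alternative was chosen after seeing the data. Without counts, the error of low genes such as Acacb cannot be split into counting error and spread between libraries.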
